A study of Mus musculus with 8 samples.

Results

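The genes described here are the Usp genes of the mouse, named for the ubiquitin-specific proteases. They were taken as every protein-coding gene whose symbol begins with Usp and a digit and that lies on an autosome in the GENCODE annotation of mm10, which gave 50 genes. All m6A peaks with their midpoint in the same-strand span of one of these genes were assigned to it, 87 of the 17068 peaks in the 3 deposited lists. The symbol rule also took in 5 Usp17-like genes and Usp6nl, which encodes a Rab GTPase-activating protein and not a protease.

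The peaks came from ChrMeRIP-seq, in which chromatin-associated RNA (ChrRNA, rich in nascent transcripts) is fragmented, precipitated with an antibody against m6A and sequenced beside its input. The cells were E14 mESCs, a mouse embryonic stem cell line, untreated and grown on gelatine with foetal calf serum and LIF. There were 8 libraries in 4 groups of 2: SySy_ChrMeRIP and Abcam_ChrMeRIP, named for the suppliers of the antibodies (Synaptic Systems and Abcam), and SySy_Input and Abcam_Input. Of the peak lists, Cfg1 held 5277 peaks called with both antibodies, Cfg2 held 5472 peaks called with the SySy antibody where the Abcam signal was below threshold, and Cfg3 held 6319 peaks called with the Abcam antibody only. The study ranks Cfg1, Cfg2 and Cfg3 as groups of high, medium and low confidence, and describes the SySy signal in Cfg3 as almost absent. Cfg1 and Cfg2 together are named SySy-called below and Cfg3 is named Abcam-only. A contrast between these classes is therefore also one between confidence groups. The duplicates of each antibody were joined before the peaks were listed and every peak carried a score of 0, so no peak had a height, a depth or a spread between replicates, and a gene could only be described by how many peaks it carried and where. The labels name the same stranded library kit for all samples while the study's methods name different kits for the SySy and Abcam libraries, so antibody and library preparation cannot be told apart. All 13 stem cell marker genes checked carried a peak, none of 6 fibroblast markers did, and 2 of 8 early differentiation markers did. The share of all autosomal protein-coding genes with a peak was 25.9%. The differences from that share were not tested. A gene without a peak may still be transcribed, so the absence of peaks does not show that a marker was silent.

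Ubiquitin-specific proteases are the largest family of deubiquitinases, cysteine proteases that cut ubiquitin from proteins or trim ubiquitin chains, and single members act on histones, DNA repair factors, endosomes, mitochondria or the proteasome. N6-methyladenosine (m6A) is placed on RNA as it is transcribed, by a complex around METTL3 and METTL14, mostly at adenosines inside short motifs of which GGACT (in DNA letters, methylated at the A) is the best known. In messenger RNA it is known to be frequent in long exons and near stop codons.

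The Cfg1 peaks of 11 Usp genes held at least 1 GGACT on the transcribed strand. For each of these genes the GGACT nearest to the midpoint of a Cfg1 peak is shown, with 12 bases on both sides and the motif in capitals, because these are the motif positions in the regions called with both antibodies (mm10, read 5′ to 3′ on the strand of the gene).
Usp34 (chr11:23364363-23364391, plus strand): cacacgaagtggGGACTtccttggggaga
Usp31 (chr7:121648548-121648576, minus strand): tctgaggataagGGACTgtccttctttaa
Usp6nl (chr2:6441489-6441517, plus strand): atggccaatcatGGACTcgggatgctcac
Usp48 (chr4:137656381-137656409, plus strand): gagggcgagcgaGGACTgagcaggcagag
Usp1 (chr4:98934431-98934459, plus strand): gtagaaggtattGGACTtctcggtggaca
Usp42 (chr5:143710955-143710983, minus strand): gctgggaaccatGGACTtcaaaaggacaa
Usp47 (chr7:112093155-112093183, plus strand): tgaggaacgctcGGACTcagatgtgaata
Usp53 (chr3:122949170-122949198, minus strand): atctgccagcttGGACTctcctggtgtgg
Usp10 (chr8:119941563-119941591, plus strand): cagtcatgcccaGGACTtgtgacagccct
Usp2 (chr9:44075858-44075886, plus strand): tctccagcctccGGACTtcagatggctac
Usp5 (chr6:124815480-124815508, minus strand): cggctgagggatGGACTtcagcccctgct
Of these 11 sites, 8 lay in coding sequence and those of Usp48, Usp42 and Usp5 in 3′ UTRs. The base after the motif was t in 6 sites, c in 3 and g in 2, and the base before it was t in 5 sites and a, c or g in 2 sites each. The A of the motif was the first base of its codon in Usp6nl, Usp10 and Usp2. It was the middle base in Usp47 and Usp53 and the last base in Usp31 and Usp1. The annotated coding sequence of Usp34 (10804 nt) is not a whole number of codons and has no 5′ UTR before it. Counted from its first base, the Usp34 A is a last base, but counted back from the stop codon it is a middle base. The motif lay within 50 nt of the peak midpoint in 6 of the 11. A motif match is a description of the sequence and was not measured at base resolution.

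At least 1 m6A peak was found in 30 of the 50 Usp genes (60.0%, Wilson 95% interval 46.2 to 72.4%), against 25.9% of all 20807 autosomal protein-coding genes. Cfg1 peaks were found in 20 Usp genes (40.0%), against 12.6% of all autosomal coding genes. Cfg2 peaks were found in 19 (38%), against 14.2%. Peaks of the Abcam-only list were found in 13 (26.0%), against 13.6%. A SySy-called peak of either list was present in 28 Usp genes (56.0%), against 20.4% of all genes, and 7 Usp genes (14.0%) were in all 3 lists, against 3.43%. Cfg1 and Cfg2 peaks lay together in 11 Usp genes (22%), against 6.46% of all genes. Usp8 and Usp28 were the Usp genes with Abcam-only peaks alone (4%, against 5.52%). Whether these shares differ from those of other genes was not tested, and peaks were counted with no correction for how strongly a gene was transcribed.

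Usp genes are long, so the counts are given here beside length. Their representative transcripts (the longest coding sequence of each gene) had a median of 4509.5 nt of spliced sequence and 16 exons, against 2586 nt and 7 exons for all autosomal coding genes. Per 10 kb of spliced sequence, the 50 Usp genes carried 1.44 exonic Cfg1 peaks, against 0.677 in all autosomal coding genes. The same densities were 1.19 against 0.644 for Cfg2 and 0.452 against 0.329 for Cfg3. Among genes with at least 1 peak the Cfg1 densities were 2.13 in Usp genes against 1.92. They were 1.76 against 1.82 for Cfg2 and 0.669 against 0.933 for Cfg3. These genes were chosen by having a peak, which kept 60.0% of Usp genes and 25.9% of all genes. The filtered densities therefore do not correct the unfiltered ones. Within the family, the 30 genes with a peak had a median of 3076.5 nt of coding sequence, against 1635 nt in the 20 without, while their median spliced lengths were 4655.5 and 4380.5 nt. The part of length and transcription in the counts was not tested.

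The peaks were unevenly spread over the family. The 10 genes with 4 or more peaks held 53 of the 87 peaks (20% of Usp genes had 4 or more, against 6.63% of all genes), 9 genes had 2 or 3 peaks, and 11 had 1. Usp34 led with 8 peaks, followed by Usp48 and Usp53 with 7 each, Usp36 with 6 and Usp54 with 5. Usp1, Usp24, Usp31, Usp42 and Usp44 had 4 peaks each. Several neighbouring peaks are pieces of 1 enriched region that was divided between its summits. Counting such regions once per list gave 26 in Cfg1, 25 in Cfg2 and 20 in Cfg3, in place of 35, 30 and 22 peaks. A region with pieces in both Cfg1 and Cfg2 is in both of these counts. With such regions counted once there were 48 SySy-called regions and 68 regions in all.

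**Figure D1:**
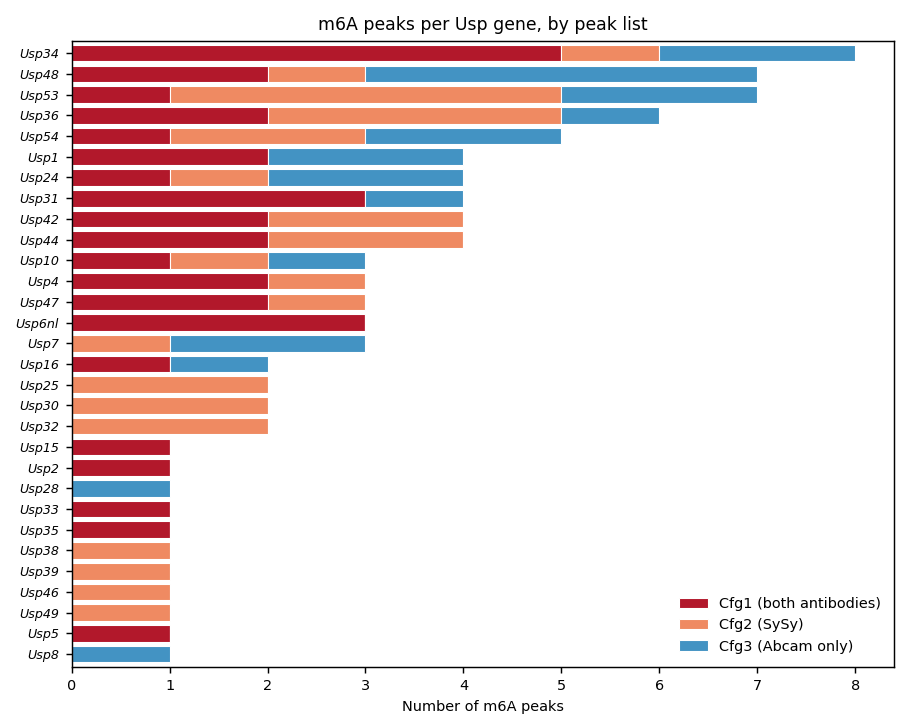
Number of m6A peaks (x axis) in each of the 30 Usp genes that carried any, with the segments of a bar giving the peaks of Cfg1, Cfg2 and Cfg3. Usp34 has 5 Cfg1 peaks and Usp48 has 4 Abcam-only peaks, and the lowest 11 bars hold 1 peak each.

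Most Usp peaks lay in exons. All 35 Cfg1 peaks and 29 of 30 Cfg2 peaks had their midpoint in an exon of the representative transcript, against 11 of 22 Abcam-only peaks. In other autosomal coding genes the exonic shares were 91.5% for Cfg1, 86.0% for Cfg2 and 41.0% for Cfg3. Of the exonic peaks in Usp genes, coding sequence held 26 of 35 in Cfg1, 15 of 29 in Cfg2 and 10 of 11 in Cfg3, and 3′ UTRs held 8, 12 and 1. The 3 peaks in 5′ UTRs belonged to Usp54 (1 Cfg1 and 1 Cfg2) and Usp48 (1 Cfg2). Spliced distances from the stop codon were counted from the last coding base before it. Within 200 nt of the stop codon lay 7 of 35 Cfg1 peaks (20%), 6 of 29 exonic Cfg2 peaks (20.7%) and none of 11 exonic Abcam-only peaks, where a count of 0 of 11 has a Wilson 95% interval up to 25.9%. These stop codon peaks came from 11 genes, Usp34, Usp53, Usp31, Usp6nl, Usp47, Usp10, Usp4, Usp32, Usp25, Usp15 and Usp5. In other genes the shares near the stop codon were 24.6%, 23.3% and 15.9%. The median exonic peak of the Usp genes lay 531 nt upstream of the stop codon in Cfg1, 267 nt upstream in Cfg2 and 1568 nt upstream in Cfg3.

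**Figure D2:**
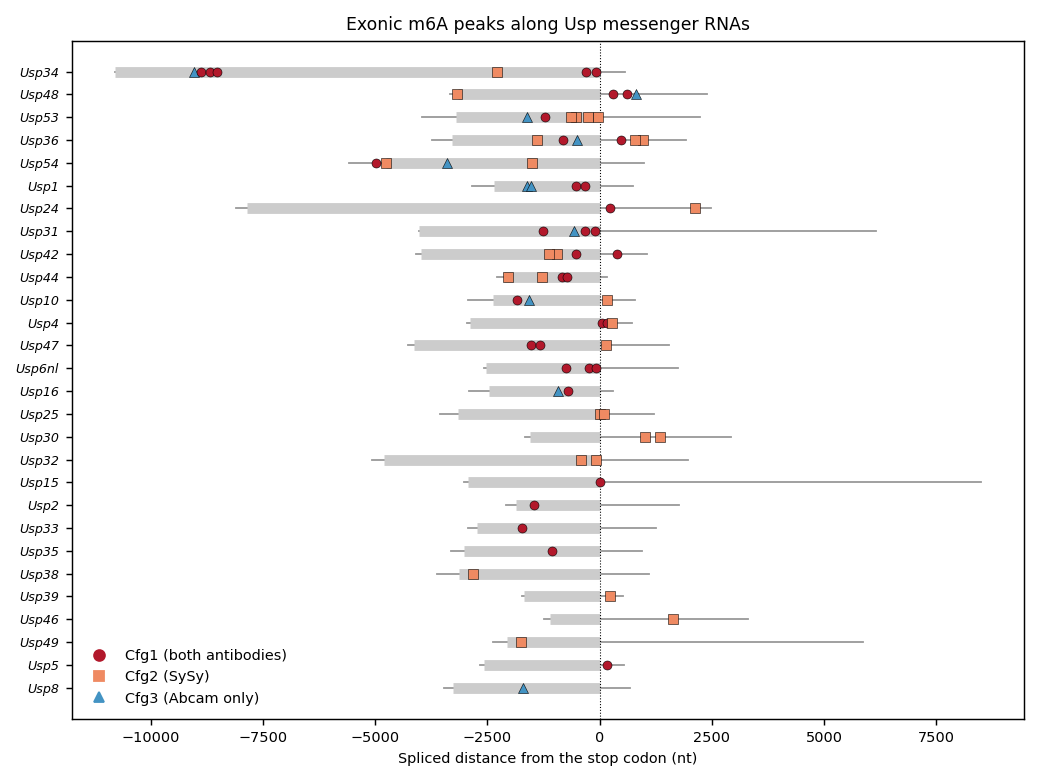
Position of each of the 75 exonic peaks (x axis, spliced distance of the peak midpoint from the stop codon in nt) along the representative messenger RNA of the 28 Usp genes with an exonic peak. Thick grey bars are coding sequence, thin lines are UTRs, and circles, squares and triangles are Cfg1, Cfg2 and Cfg3 peaks. The Usp34 cluster at its left end lies between 9035 and 8520 nt upstream of the stop codon, while the peaks of Usp4 lie just downstream of it.

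The exons that carried peaks were long. Of the 75 exonic peaks, 72 (96.0%) lay in exons of 400 nt or more, against 92.4% in other genes. The last exon carried 38 of them, in 19 of the 50 genes, and the remaining 37 lay in 23 non-terminal exons. Non-terminal exons of 400 nt or more carried a peak in 20 of 37 cases, and those under 400 nt in 3 of 838. A longer exon has more bases in which a midpoint can fall. Exons of 400 nt or more held 56.2% of the spliced bases of the 50 Usp genes, and 21.7% of the bases in non-terminal exons. By length, no exon of 290 under 100 nt and none of 472 between 100 and 199 nt had a peak, against 0.0361% and 0.287% in other genes. Between 200 and 399 nt the share was 3 of 76 (3.95%, interval 1.35 to 11.0%), against 1.66% in other genes. It was 11 of 26 between 400 and 799 nt (42.3%, interval 25.5 to 61.1%), against 15.6%, and 9 of 11 at 800 nt or more (81.8%, interval 52.3 to 94.9%), against 37.3%. The other genes include all those without any peak, and the difference between the gene sets was not tested. The 3 shorter exons with a peak were exon 17 of Usp36 (200 nt), exon 1 of Usp48 (310 nt) and exon 12 of Usp54 (378 nt). Of the 28 genes with an exonic peak, 22 carried one in their longest exon, and the exceptions were Usp2, Usp8, Usp33, Usp38, Usp49 and Usp54. A non-terminal exon of 400 nt or more was present in 26 Usp genes and carried a peak in 17 of them. Of the 24 Usp genes without such an exon, 8 had an exonic peak.

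**Figure D3:**
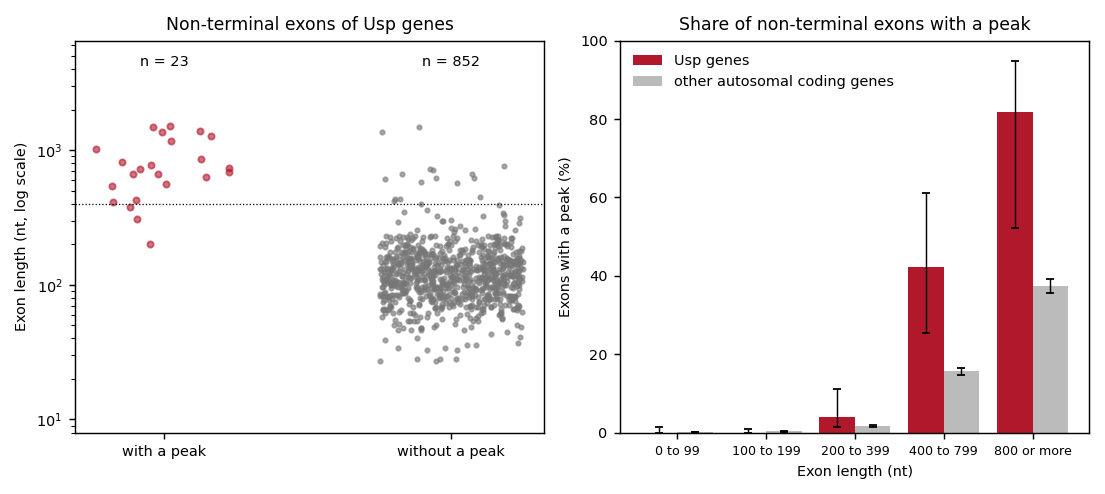
Left, length of every non-terminal exon of the 50 Usp genes (y axis in nt, log scale), for the 23 exons with a peak and the 852 without, with a dotted line at 400 nt and points spread sideways at random. Right, percentage of non-terminal exons with a peak (y axis) by exon length (x axis) in Usp genes and in other autosomal coding genes, with Wilson 95% intervals as error bars, at 81.8% and 37.3% for exons of 800 nt or more.

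The members were also counted by role, where the share with a peak was 60.0% in the whole family and 25.9% in all autosomal coding genes. Among the members that act on chromatin and the genome, 11 of 18 carried a peak (61.1%), about the share of the family. Usp48, which can remove ubiquitin from histone H2A, had 2 Cfg1 peaks, 1 Cfg2 peak and 4 Abcam-only peaks. Both of its Cfg1 peaks lay in the 3′ UTR part of exon 28 of 28, 287 and 615 nt downstream of the stop codon, with an Abcam-only peak 816 nt downstream in the same exon. Its Cfg2 peak lay in the 5′ UTR in exon 1, and its other 3 Abcam-only peaks were intronic. Usp36, a nucleolar enzyme, had 2 Cfg1, 3 Cfg2 and 1 Abcam-only peak, all exonic and spread over exons 14, 16, 17 and 21 of 21. Its 3′ UTR held 3 of them, 473, 790 and 959 nt downstream of the stop codon. Usp42, its paralogue and an enzyme that acts on p53, had 2 Cfg1 and 2 Cfg2 peaks. Exon 15 of 18 (1479 nt) held 3 of these in coding sequence and the last exon held a Cfg1 peak 394 nt downstream of the stop codon, the peak whose GGACT is printed above. Usp42 had no Abcam-only peak.

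Usp44, which removes ubiquitin from histone H2B and takes part in the mitotic checkpoint, had 2 Cfg1 and 2 Cfg2 peaks and no Abcam-only peak. All 4 lay in exon 2 of 6, which is 1504 nt long, between 2039 and 720 nt upstream of the stop codon. Its paralogue Usp49 had 1 peak, of Cfg2, in exon 3 of 7 (1375 nt). Usp1, the enzyme that acts on FANCD2 and PCNA, had its Cfg1 and Abcam-only peaks in different exons. Its 2 Cfg1 peaks lay in the last exon, 528 and 318 nt upstream of the stop codon, and its 2 Abcam-only peaks were adjacent pieces of exon 6 (689 nt), 1623 and 1529 nt upstream. Usp47, known from base excision repair, had 2 Cfg1 peaks in exon 21 of 29 (781 nt) and a Cfg2 peak 144 nt downstream of the stop codon. Usp16, which acts on histone H2A in mitosis, had a Cfg1 peak and an Abcam-only peak 3 nt apart in exon 14 of 18.

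Usp7, the enzyme known for its action on MDM2 and p53, was the only Usp gene with a SySy-called peak in an intron of the representative transcript. With the longest transcript of each gene in its place, 1 Cfg2 peak of Usp44 was intronic too. Usp7 had no exonic peak at all. Its Cfg2 peak (chr16:8738755-8738855, minus strand) lay in intron 2, 18011 nt downstream of the 5′ splice site in an intron of 40196 nt. Its 2 Abcam-only peaks lay in intron 2 and in intron 1, 29242 and 19198 nt downstream of their 5′ splice sites. None of the 3 held a GGACT. Usp46, which works with WDR48 and WDR20, had a single Cfg2 peak 1638 nt downstream of the stop codon, in a last exon of 3412 nt. Usp28, known from the MYC and 53BP1 pathways, had a single Abcam-only peak in intron 9.

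All 3 members tied to splicing carried SySy-called peaks, all exonic. Usp4, an enzyme recruited to the spliceosome by SART3, had 2 Cfg1 peaks and 1 Cfg2 peak as 3 adjoining pieces of a single region, 63, 168 and 283 nt downstream of the stop codon. Usp15, its paralogue, had 1 Cfg1 peak, 250 nt wide, with its midpoint 1 nt upstream of the last coding base, in a last exon of 8682 nt. Usp39, a spliceosome protein without protease activity, had 1 Cfg2 peak 222 nt downstream of the stop codon. Of the 3 members that act on the proteasome or on free ubiquitin chains, Usp5 had 1 Cfg1 peak 158 nt downstream of the stop codon, and Usp13 and Usp14 had none.

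Among members tied to membranes and organelles, 5 of 7 carried a peak (71.4%, against 60.0% of the family). Usp6nl had 3 Cfg1 peaks in its last exon, 742, 242 and 83 nt upstream of the stop codon. Usp30, an enzyme of the outer mitochondrial membrane that opposes Parkin, had 2 Cfg2 peaks in its 3′ UTR, 1015 and 1343 nt downstream of the stop codon. Usp32 had 2 Cfg2 peaks in coding sequence, 424 and 72 nt upstream of the stop codon. Usp33 had 1 Cfg1 peak in exon 10, of 415 nt. Usp8, which acts on endosomal cargo, had 1 Abcam-only peak in exon 11 (558 nt), and this peak also lies antisense within the span of Usp50.

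Among the 11 members grouped as signalling, translation and stress genes, 8 carried a peak (72.7%, against 60.0% of the family). Usp34, which acts on axin in Wnt signalling, had 5 Cfg1 peaks, 1 Cfg2 peak and 2 Abcam-only peaks. Exon 15 of 80 (722 nt) held 3 of the Cfg1 peaks and an Abcam-only peak, between 9035 and 8520 nt upstream of the stop codon. The last exon held the other 2 Cfg1 peaks, 295 and 79 nt upstream, the Cfg2 peak lay in exon 68, and the second Abcam-only peak was in intron 41. Usp31 had 3 Cfg1 peaks and 1 Abcam-only peak, all in coding sequence in its last exon, which at 7731 nt is mostly 3′ UTR. They lay 1258, 568, 323 and 105 nt upstream of the stop codon, the second of them Abcam-only. Usp24, with 68 exons, had a Cfg1 peak and a Cfg2 peak in its 3′ UTR, 221 and 2136 nt downstream of the stop codon, and 2 adjacent Abcam-only peaks in intron 1, 669 and 822 nt downstream of the 5′ splice site. Usp10, the partner of the stress granule proteins G3BP1 and G3BP2, had a Cfg1 and an Abcam-only peak in exon 4 (1029 nt) and a Cfg2 peak 171 nt downstream of the stop codon. These 3 peaks also lie in the same-strand span of the annotated gene Gm20388, and the Usp49 peak in that of Gm20517, and the lists do not separate such genes.

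Usp25, which acts on tankyrases, had 2 adjacent Cfg2 peaks 18 and 97 nt downstream of the stop codon. Usp2 had 1 Cfg1 peak, in exon 2 (857 nt), and the peak held 3 GGACT motifs. Usp35 had 1 Cfg1 peak in exon 10 (1273 nt) and its paralogue Usp38 had 1 Cfg2 peak in exon 1 (1174 nt).

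Usp53 and Usp54, paralogues long described as inactive, both carried peaks of all 3 lists. Usp53 had 1 Cfg1, 4 Cfg2 and 2 Abcam-only peaks. The 4 Cfg2 peaks lined the coding part of its last exon, 628, 521, 267 and 32 nt upstream of the stop codon, the Cfg1 peak and an Abcam-only peak lay in exon 13 (733 nt), and the other Abcam-only peak lay in intron 14. Usp54 had 1 Cfg1, 2 Cfg2 and 2 Abcam-only peaks. Its Cfg1 peak and a Cfg2 peak lay in the 5′ UTR part of exon 2 (824 nt), the other Cfg2 peak in exon 18 (1397 nt), and the Abcam-only peaks in exon 12 and, 322 nt downstream of the 5′ splice site, in intron 1. Usp50, the other member of this group, had none.

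No peak was assigned to 20 Usp genes: Usp3, Usp12, Usp13, Usp14, Usp18, Usp19, Usp20, Usp21, Usp22, Usp29, Usp37, Usp40, Usp43, Usp45, Usp50 and the 5 Usp17-like genes. Sequence reads may not map uniquely to related copies such as the Usp17-like genes, but neither their similarity nor the mapping was tested. A non-terminal exon of 400 nt or more was present in 6 of the 20, Usp20, Usp21, Usp29, Usp43, Usp45 and Usp17le. Without read counts a gene that was not transcribed cannot be told apart from one that was transcribed and not methylated. Of 11 paralogue pairs in the family, both genes carried a peak in 6 and 1 of the pair in 5. The pairs with 1 gene carrying peaks were Usp46 and Usp12, Usp33 and Usp20, Usp5 and Usp13, Usp31 and Usp43, and Usp16 and Usp45, with the gene carrying peaks named first.

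SySy-called and Abcam-only peaks of the Usp genes were compared in 3 two-sided Fisher's exact tests on peaks, with Benjamini-Hochberg adjustment over the 3. Peaks of 1 gene share a transcript, and adjacent peaks can be pieces of 1 region, so these tests cover counting error only. Introns held 1 of 65 SySy-called peaks (1.54%, Wilson 95% interval 0.272 to 8.21%), against 11 of 22 Abcam-only peaks (50.0%, interval 30.7 to 69.3%). The difference, SySy-called minus Abcam-only, was -48.5 percentage points (interval -67.8 to -28.1, adjusted p = 7.87e-07, Fisher's exact test). With 1 peak counted per gene and class the exact test gave -34.9 points (adjusted p = 0.025). In other autosomal coding genes 8.44% of SySy-called and 55.8% of Abcam-only peaks were intronic.

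The 12 intronic peaks lay in 7 genes, Usp48 and Usp7 with 3 each, Usp24 with 2, and Usp34, Usp53, Usp54 and Usp28 with 1 each. Intron 1 held 4 of them and 5 lay within 1 kb of the 5′ splice site. The 2 Abcam-only peaks in intron 26 of Usp48 (2216 nt) lay 186 and 1291 nt downstream of the 5′ splice site, and a further peak lay in intron 19. None of the 12 fell in an exon of another annotated transcript of its gene. In other genes 38.6% of SySy-called and 6.94% of Abcam-only intronic peaks did.

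Of the 11 exonic Abcam-only peaks, 6 lay in an exon that also held a SySy-called peak (54.5%, interval 28.0 to 78.7%), against 46.4% in other genes. The bases between them numbered 3 in Usp16, 18 in Usp31, 23 in Usp34, 78 in Usp10, 81 in Usp48 and 178 in Usp53. The other 5 lay in exons with no SySy-called peak, 2 of them in Usp1 and 1 each in Usp8, Usp36 and Usp54.

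Coding sequence held 41 of 64 exonic SySy-called peaks (64.1%), against 10 of 11 exonic Abcam-only peaks (90.9%). The difference of -26.8 points (interval -41.2 to 3.71) did not pass the threshold (adjusted p = 0.093, Fisher's exact test), and an interval this wide leaves its size unsettled. In other autosomal coding genes coding sequence held 58.1% of exonic SySy-called and 81.5% of exonic Abcam-only peaks.

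GGACT on the strand of the peak was found in 23 of 65 SySy-called peaks (35.4%, interval 24.9 to 47.5%), against 2 of 22 Abcam-only peaks (9.09%, interval 2.53 to 27.8%). The difference was 26.3 points (interval 4.82 to 40.1, adjusted p = 0.041, Fisher's exact test). The exact test no longer passed with 1 peak per gene and class (16.8 points, adjusted p = 0.45) or within the central 100 nt of each peak (18.5 points, adjusted p = 0.092). Nor did it pass for Cfg1 alone against Cfg3 (25.2 points, adjusted p = 0.083, exact test) or with 1 peak per enriched region and gene, a setting chosen after seeing the data (27.5 points, adjusted p = 0.058, exact test). Peak width moved with the class. Its median was 210 nt for Cfg1 peaks, 153.0 nt for Cfg2 peaks and 140.5 nt for Abcam-only peaks, and its part in the result was not tested beyond that central window. For the shorter GGAC, found in 44 of 65 SySy-called and 14 of 22 Abcam-only peaks, the difference was 4.06 points (interval -16.5 to 27.1, adjusted p = 0.8, Fisher's exact test). For AGACT or GGACT it was 38.7 points (34 of 65 SySy-called against 3 of 22 Abcam-only peaks, adjusted p = 0.0034, Fisher's exact test). In other genes GGACT was in 34.9% of SySy-called and 17.1% of Abcam-only peaks. In 210-nt windows tiled along the Usp transcripts it was in 225 of 1132 (19.9%). That width is the Cfg1 median and the transcripts hold no introns. The share is therefore not matched to the Abcam-only peaks, which were narrower and often intronic.

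The 25 Usp peaks with GGACT came from 19 genes, and 4 of them held more than 1, those of Usp2, Usp10, Usp30 and Usp6nl. The Abcam-only ones were in intron 1 of Usp24 and in the last exon of Usp31. Where GGACT was missing, the motif GGACA, the motif GGACC, the motif AGACT or the motif GAACT was present on the same strand in 17 of 35 Cfg1, 10 of 30 Cfg2 and 14 of 22 Abcam-only peaks, and 6, 9 and 6 peaks held none of these 5 motifs. The GC content of the peaks was 49.6 ± 6.20% in Cfg1 (SD over 35 peaks), 53.0 ± 10.8% in Cfg2 (30 peaks) and 49.6 ± 5.52% in Cfg3 (22 peaks). Means in other autosomal coding genes were 50.3%, 52.3% and 49.5%.

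**Figure D4:**
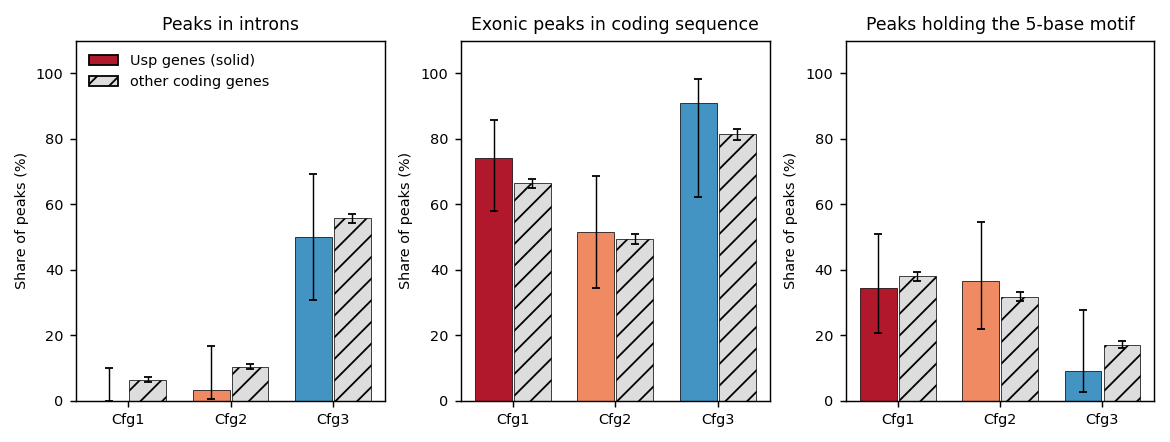
Share of peaks (y axis, percent) in introns, of exonic peaks in coding sequence, and of peaks with GGACT (the 5-base motif), for Cfg1, Cfg2 and Cfg3, in Usp genes (solid) and in other autosomal coding genes (hatched), with Wilson 95% intervals. In Usp genes introns held 0 of 35, 1 of 30 and 11 of 22 peaks, and the motif was in 12, 11 and 2 of them.

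Peaks were also counted in 37 genes of other deubiquitinase families or with a Usp-type fold under another symbol. These were chosen by family and not by enzyme activity, so not every one need encode an active deubiquitinase. Of the 37 genes, 18 carried a peak (48.6%, beside 60.0% of Usp genes and 25.9% of all autosomal coding genes). Cfg1 peaks were found in 13 of them, Cfg2 peaks in 8 and Abcam-only peaks in 9, where the shares of all genes were 12.6%, 14.2% and 13.6%. The differences were not tested. Vcpip1, an ovarian tumour family enzyme, had 5 Cfg1, 6 Cfg2 and 1 Abcam-only peak, more than any Usp gene. Zup1 had 5 Cfg1 and 2 Abcam-only peaks and Zranb1 had 4 Cfg1, 1 Cfg2 and 1 Abcam-only peak. The 3 genes among them with a Usp-type fold, Cyld, Pan2 and Uspl1, all carried peaks of Cfg1 and Cfg2, and the 4 ubiquitin C-terminal hydrolase genes carried none. Of 38 genes for partners and substrates of Usp enzymes, 21 carried a peak (55.3%, beside 60.0% of Usp genes and 25.9% of all genes). Wdr20, a cofactor of Usp12 and Usp46, had 3 Cfg1, 3 Cfg2 and 1 Abcam-only peak, Sart3 had 4 Cfg1 peaks, and Mdm2 had 3 Cfg1, 1 Cfg2 and 1 Abcam-only peak.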

How the data were processed

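ChrMeRIP-seq and input libraries (8 samples, duplicates of 4 groups) of E14 mESCs were processed by the authors. They called peaks with MACS2 (2.1.1) separately for each antibody, divided peaks between summits and trimmed them, and classed them as Cfg1, Cfg2 and Cfg3. HOMER is also named in the submitters' processing notes. The deposited lists (mm10) give peak coordinates and a score of 0 in all 17068 lines, so depth is unknown. A stray character in 1 strand field was read as plus.

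Peaks were assigned by midpoint to same-strand gene spans and placed in the transcript with the longest coding sequence, with GENCODE vM21 (the study used another release) and the GRCm38.p6 sequence. The 50 spliced member transcripts equalled the reference base for base. Placement was tested on simulated positions. Shares were given Wilson 95% intervals, and 3 Fisher's exact tests were adjusted by Benjamini-Hochberg (threshold 0.05, Python 3.11.15, scipy 1.17.1, numpy 2.4.6). Members with a peak were named. The 12 with the most peaks (15 with ties) and those with SySy-called or repeated Abcam-only intronic peaks were described in depth. Members and lists were chosen with earlier results of these data known. Alternatives covered the transcript choice, the peak and motif rules, counting by gene and single lists.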

Additional observations from a re-analysis of the deposited data

How the results depend on the processing

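Of 48 alternatives, 21 concerned the tests and 27 the counts. The tests kept their direction and their side of the threshold in 15, none reversed, and 24 of the counts stayed within 1.5-fold. The intronic share of SySy-called minus Abcam-only peaks passed in all 9 alternatives. The coding share passed for Cfg2 against Cfg3 (-39.2 points, adjusted p = 0.03, Fisher's exact test) and in none of the other 4. The GGACT share lost its call for GGAC (4.06 points), the central 100 nt (18.5), 1 peak per gene and class (16.8) and Cfg1 against Cfg3 (25.2), and with 1 peak per region and gene, a setting chosen after seeing the data (27.5). It kept it for AGACT or GGACT and for Cfg2 against Cfg3. Asking for at least 2 peaks left 10 Usp genes in Cfg1, 8 in Cfg2 and 7 in Cfg3. Counting regions before they were divided was also chosen after seeing the data. The cause of these changes was not tested. No paired analysis was possible because the lists were made from joined duplicates, and for the same reason no replicate could be left out. This limit concerns pairs of replicates and not pairs of classes within a gene. Of the 13 Usp genes with Abcam-only peaks, all but 2 also carried SySy-called peaks. The Fisher's exact tests, also with 1 peak per gene and class, treated the classes as independent, and pairing by gene was not tested. With all scores at 0 no stricter peak threshold could be set, and what sequencing depth limits is unknown.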
